A study of Mus musculus with 13 samples.

Results

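The genes described here encode the proteins of the mitochondrial ribosome, measured by RNA-seq in mouse hearts. Name alone decided which genes belong: every protein-coding gene of the count table whose symbol begins with Mrpl (large subunit) or Mrps (small subunit) followed by a number and at most 1 letter. Earlier results of these data were known when this choice was made. The rule gave 78 of the 55471 genes listed, and all 78 were among the 15000 genes with enough counts to be tested. By current assignment 51 belong to the large subunit, including Mrps18a and Mrps30 despite their names, and 26 to the small subunit. The remaining gene, Mrps36, encodes a protein that is now assigned to the oxoglutarate dehydrogenase complex. Of the 78, 46 have a counterpart in the bacterial ribosome, 30 are found in mitochondrial ribosomes without a bacterial counterpart, and Mrpl55 and Mrps36 were left unclassified.

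The study compared 3 groups of hearts. WT control (5 libraries) came from wild-type mice, and R502W control (4 libraries) from mice carrying the R502W change in cMyBP-C, the cardiac myosin-binding protein C of the sarcomere, encoded by Mybpc3. R502W mavacamten (4 libraries) came from mice of that mutant model which drank mavacamten, an inhibitor of cardiac myosin, at 2.5 mg/kg/day over 21 weeks; no WT group received the drug. The design text gives an age of 24 weeks, whereas the extraction protocol in the labels names hearts of 3 and 18 weeks, so the age is not settled here. The labels state neither the sexes, nor whether the change was on 1 or both alleles, nor that each library was a separate mouse, so p-values measure only the spread between these libraries. A single-residue change cannot be checked from gene counts. The sample titles say heart without naming its parts. Hearts hold many cell types, and fewer cells of a type cannot be told apart from less RNA per cell.

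The mitochondrial ribosome translates the few proteins that the mitochondrial genome encodes, all of them core subunits of the respiratory chain and ATP synthase. Its RNAs are made inside the organelle, whereas its proteins are encoded in the nucleus, made in the cytosol and imported, so that the ribosome depends on both genomes. The heart draws most of its ATP from respiration, and inherited defects in several of these proteins, among them those of human MRPL3, MRPL44 and MRPS22, cause disease that includes cardiomyopathy.

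The libraries held 15350622 to 19361103 counts, of which 38905 to 55456 fell on the 78 genes. Cardiomyocyte markers (Myh6, Tnnt2, Tnni3, Actc1, Ryr2 and Myl2, all 6 measured) summed to 37050 to 52890 CPM (counts per 1000000, on library sizes scaled by the TMM method) in WT control, 52670 to 60220 in R502W control and 48360 to 68260 in R502W mavacamten. Myh6, the main myosin heavy chain of the adult mouse heart, carried most of this difference, with 23500 ± 3910, 33200 ± 1390 and 34800 ± 6190 CPM (SD) in the 3 groups. Actc1 (7810, 9940 and 10000 CPM) and Ryr2 (1060, 1930 and 1850) also had higher means in both mutant groups, whereas the means of Tnni3 (2810 and 2250), Tnnt2 (5220 and 4870) and Myl2 (3570 and 3250) were lower in R502W control than in WT control. Endothelial markers (Pecam1, Cdh5, Kdr and Tek, all 4 measured) summed to 408.9 to 568.4 CPM in WT control and 660.1 to 766.6 in R502W control, without overlap, and to 502.4 to 702.8 in R502W mavacamten. Pecam1 by itself overlapped (156 to 188 and 176 to 204 CPM), and 12.3% of the tested genes lay wholly higher in R502W control. Fibroblast markers overlapped in sum (848.8 to 1165 and 1026 to 1216 CPM), although Col1a1 did not (89.7 to 158 and 180 to 262). WT control 2 stood apart. Its lymphocyte and thymus markers summed to 231.6 CPM, against 2.583 to 16.56 in the other 12 libraries, and its cytosolic ribosomal protein genes to 15890 CPM, against 8837 to 11730. The main counts, medians and sums that rest on WT control are therefore also given without that library, an omission partly added after the data were seen. Fat markers also varied within every group, with white fat markers ranging from 5.866 to 233.7 CPM in WT control, 0.9002 to 179.4 in R502W control and 2.896 to 250.1 in R502W mavacamten. Brown fat markers ranged from 20.75 to 190.0, 15.64 to 197.0 and 18.08 to 252.6 CPM in the same groups. The atrial marker Bmp10 was low in 1 library of each group: 8.33 CPM in WT control 3, 1.57 in R502W control 1 and 6.23 in R502W mavacamten 3. It measured 307 to 672 in the other libraries. Another atrial marker, Myl7, did not share this, with 1240, 612 and 434 CPM in those 3 libraries. The part of these markers in the results was not tested.

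Levels of different genes were compared per kilobase of exon, scaled to a total of 1000000 in each library. On this length-scaled level, averaged over all 13 libraries, the 78 genes ran from 1.14 to 150 with a median of 26.4, against a median of 6.22 over the tested genes. The median was 29.5 for the large subunit and 20.4 for the small subunit. Mrpl12, the counterpart of the bacterial stalk protein that contacts translation factors, was highest at 150. It was followed by the small-subunit genes Mrps23 at 121 and Mrps21 at 108 and by Mrpl2, a core protein of the large subunit, at 93.0. The lowest were Mrps22 at 5.93, Mrpl32 at 5.04, Mrps10 at 4.04 and Mrpl23 at 1.14. This order rested on all annotated exons, used or not. With the median length of each gene's protein-coding transcripts in its place, the highest were Mrpl42 at 312, Mrps23 at 173, Mrpl30 at 144 and Mrps21 at 121, and Mrpl23 was still lowest, at 4.91.

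**Figure D1:**
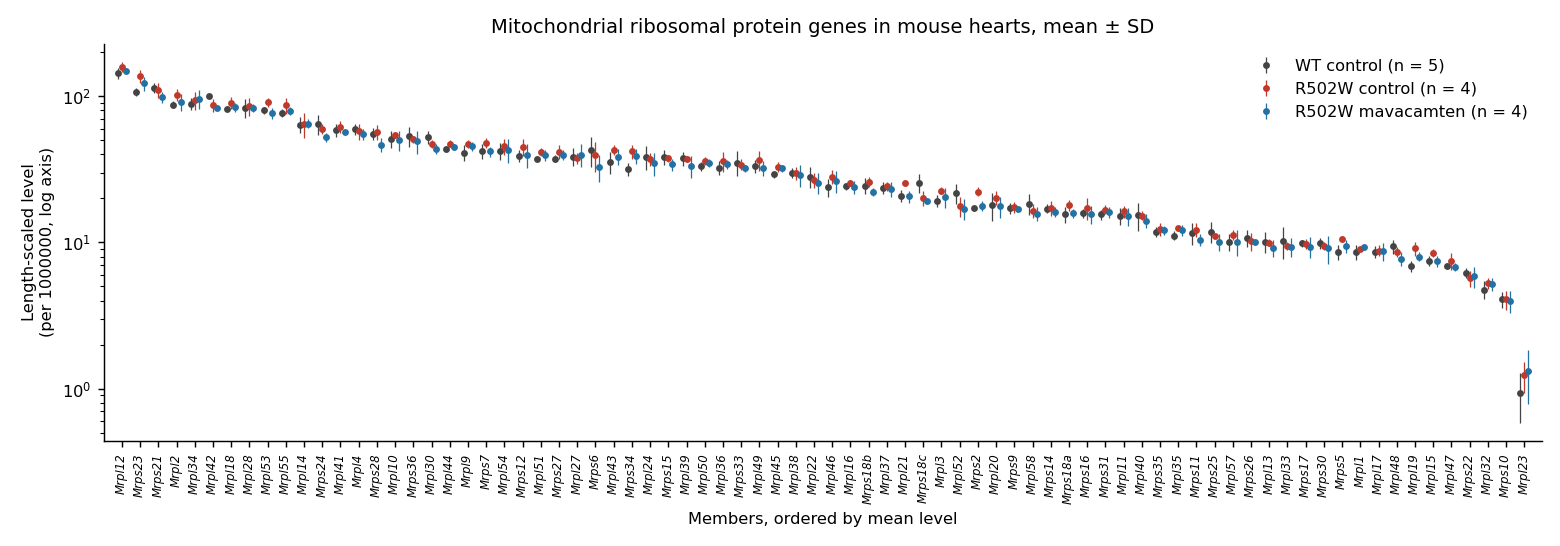
Length-scaled level (log axis) of each of the 78 genes, ordered by mean level, in 5 WT control, 4 R502W control and 4 R502W mavacamten libraries; points are means and bars are SD. Levels run from 150 for Mrpl12 to 1.14 for Mrpl23, and the 3 groups lie close together beside this range.

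Mrpl23 has an annotated copy, Mrpl23-ps1, and how its level is read depends on it. How alike the sequences of the pair are is not given here. The copy carried 26.2 to 39.1 CPM, whereas Mrpl23 had 2.40 ± 0.999 CPM (SD, n = 5) in WT control, 2.77 ± 0.651 (n = 4) in R502W control and 3.08 ± 0.888 (n = 4) in R502W mavacamten. Mrpl23 received 6.21%, 8.33% and 9.73% of the counts of the pair in the 3 groups. Together they held 38.0 ± 3.85, 32.9 ± 3.25 and 31.9 ± 1.60 CPM. Since reads of a gene and its copy may be assigned to either, the level of Mrpl23, its rank and its fold changes are uncertain. The other annotated copies, of Mrps36 and Mrpl48, held at most 0.0673 CPM in any library. Exonic bases were shared with another annotated gene by 33 of the 78, and for 19 of these a gene of at least 1 CPM lay on the opposite strand. The protocol was strand-specific, but the strand setting of the counting is not given in the sources used here, so these 19 are uncertain where the partner is abundant.

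The genes varied little between libraries of a group. The SD of log2 CPM within groups had a median of 0.162 over the 78, against 0.225 over the tested genes, and it lay below that all-gene median for 74 of the 78. The 78 also had higher counts, with a median of 30.9 CPM against 14.1 over the tested genes. Genes of similar level were not set beside them, so the smaller SD is not shown to be particular to the 78. The most even was Mrpl10, a protein at the base of the stalk, with an SD of 0.0697, followed by Mrpl17 at 0.0909 and Mrpl37 at 0.105. Mrpl10 measured 43.4, 47.3, 47.4, 42.6 and 44.2 CPM in WT control, 42.2, 39.4, 45.3 and 44.7 in R502W control, and 41.5, 41.1, 42.7 and 41.6 in R502W mavacamten. The groups overlapped throughout. The least even were Mrpl23 at 0.444, which may share reads with its copy, Mrpl14 at 0.270 and Mrps6 at 0.234. Mrpl14 ran from 25.5 to 40.5 CPM within WT control and from 20.7 to 32.4 within R502W control.

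What variation there was within groups was largely common to the genes. In WT control 1 and in WT control 2, 72 of the 78 lay above their WT mean on the log2 CPM scale, and in WT control 3, 4 and 5 only 5, 12 and 16 did. In R502W control, 9 and 20 lay above the group mean in libraries 1 and 2, and 58 and 61 in libraries 3 and 4. In R502W mavacamten, 60 and 69 did so in libraries 2 and 3, against 23 and 6 in libraries 1 and 4. The TMM factors, by which CPM is scaled, were lowest in WT control 1 (0.8851), R502W mavacamten 2 (0.9079) and R502W mavacamten 3 (0.8831), and 0.9949 to 1.07 elsewhere. Mitochondrially encoded mRNAs took 26.8% of the counts in WT control 1 and 18.3% to 24.9% in the others. The part of library scaling in the shared pattern was not tested.

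Summed over the 78 genes, the groups were not ordered the same way on every scale. The sum was 0.289%, 0.347%, 0.281%, 0.284% and 0.279% of all counts in WT control (0.296% ± 0.0288, SD, n = 5). It was 0.253%, 0.275%, 0.285% and 0.286% in R502W control (0.2747% ± 0.0153, n = 4) and 0.276%, 0.257%, 0.26% and 0.26% in R502W mavacamten (0.2632% ± 0.00862, n = 4). Wilson 95% intervals reached 0.0024 to 0.0029 percentage points to either side of these shares and cover counting error only. WT control 2 was highest at 0.347%, and without it WT control averaged 0.2833% ± 0.00435 (n = 4), within the range of R502W control. On the length-scaled level the sums were 2713 ± 202 in WT control, 2865 ± 215 in R502W control and 2654 ± 227 in R502W mavacamten, so that R502W control was highest rather than in between. With WT control 2 left out, the WT mean on that level was 2632 ± 102 (n = 4), below R502W mavacamten, so the order of those 2 groups rests on that library. As a percent of counts, every R502W mavacamten library lay below every WT control library (highest 0.276%, lowest 0.279%), and R502W control overlapped both. The gap was within counting error: the Wilson intervals were 0.274% to 0.279% for R502W mavacamten 1 and 0.276% to 0.282% for WT control 5. As TMM-scaled CPM the sums overlapped, at 2655 to 3265 in WT control, 2541 to 2872 in R502W control and 2464 to 2949 in R502W mavacamten. On the length-scaled level all 3 groups overlapped.

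**Figure D2:**
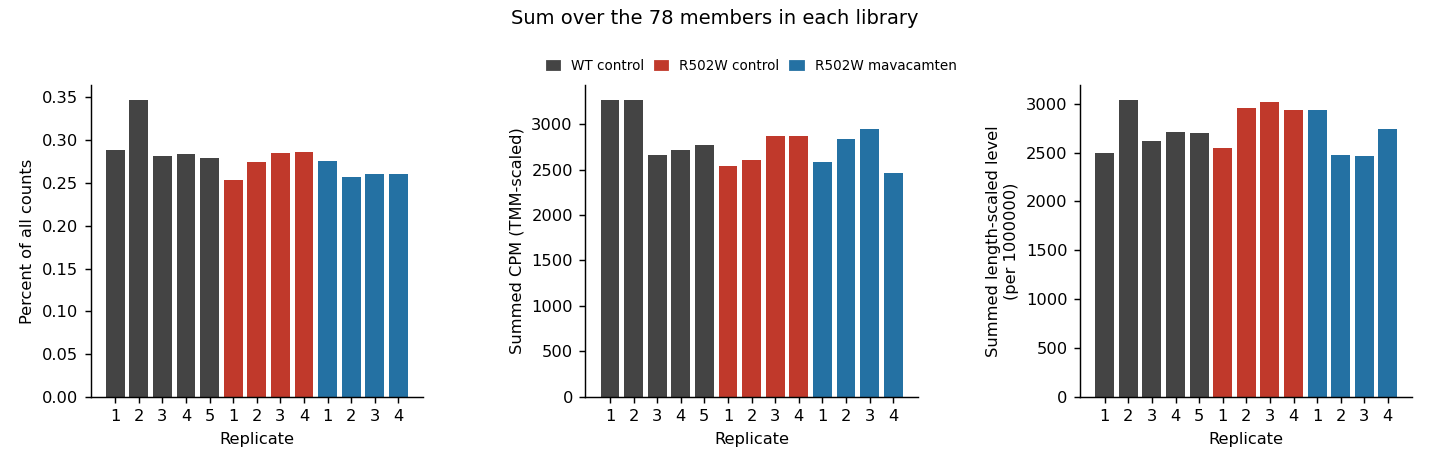
Sum over the 78 genes in each library as a percent of all counts, as TMM-scaled CPM and as length-scaled level; each bar is 1 library, numbered within its group. WT control 2 is highest as a percent of counts (0.347%), and the order of the groups differs between the panels.

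The genotype comparison asked which genes differed between R502W control and WT control. Of the 78, 3 were lower in R502W control and none was higher: Mrps18c, Mrpl30 and Mrpl52, each by 0.33 to 0.51 on the log2 scale (edgeR quasi-likelihood test, Benjamini-Hochberg adjusted p under 0.05 over all 15000 genes). These 3 are 3.85% of the genes, and of the tested genes as a whole 3.75% were lower and 8.63% higher, so the share that was lower lay at the background. At an unadjusted p under 0.05, 14 were lower and 1, Mrpl19, was higher, against 11.8% and 17.3% of the tested genes. In 4 genes, Mrps18c, Mrpl30, Mrpl42 and Mrps30, every R502W control library lay below every WT control library, where 5.45% of the tested genes did so, and none lay wholly above, against 12.3%. The fold change was below 0 for 61 of the 78 (78.2%), against 51.1% of the tested genes, and its median was -0.089 against -0.0085. Without WT control 2, 58 (74.4%) were below 0, against 54.2% of the genes then tested, and the medians were -0.084 and -0.027. The same 4 genes lay wholly below WT control, against 6.51% of the 15000 genes.

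Mrps18c is 1 of 3 mammalian relatives of a single bacterial small-subunit protein. It measured 15.1, 17.9, 13.8, 12.5 and 12.4 CPM in WT control, 8.88, 8.89, 11 and 11.5 in R502W control, and 8.89, 11.6, 11.3 and 9.25 in R502W mavacamten. Neither mutant group overlapped WT control. It fell by 0.51 ± 0.138 (log2, SE) in R502W control, with an adjusted p of 0.0299 by edgeR. The gene (ENSMUSG00000016833) lies at chr5:100798627-100804471 on the plus strand of GRCm38. Its 2 relatives did not follow it: Mrps18a, whose protein sits in the large subunit, had 30 ± 4.44, 30.6 ± 2.90 and 29.0 ± 2.99 CPM in WT control, R502W control and R502W mavacamten, and Mrps18b 26.6 ± 3.52, 24.9 ± 2.46 and 23.0 ± 2.27. Neither passed the test in any comparison, and the difference between the relatives was not itself tested.

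Mrpl30 encodes a large-subunit protein with a bacterial counterpart. It measured 98.8, 99.4, 81.5, 85.7 and 75.3 CPM in WT control, 69.6, 70.2, 67.5 and 73.9 in R502W control, and 63.5, 71.8, 75.8 and 65.5 in R502W mavacamten. The lowest WT control library lay just above the highest R502W control library and just below 1 R502W mavacamten library. It fell by 0.33 ± 0.0917 in R502W control (edgeR adjusted p 0.0341). The gene (ENSMUSG00000026087) lies at chr1:37890477-37898535 on the plus strand.

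Mrpl52 encodes a large-subunit protein found in mitochondria and not in bacteria. It measured 12.2, 15.4, 12, 10.6 and 12.4 CPM in WT control, 7.84, 8.06, 8.83 and 11.4 in R502W control, and 9.68, 10.3, 8.71 and 8.16 in R502W mavacamten. Only R502W control 4 reached into the WT range. It fell by 0.46 ± 0.138 in R502W control (edgeR adjusted p 0.0424). The gene (ENSMUSG00000010406) lies at chr14:54426909-54429756 on the plus strand.

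**Figure D3:**
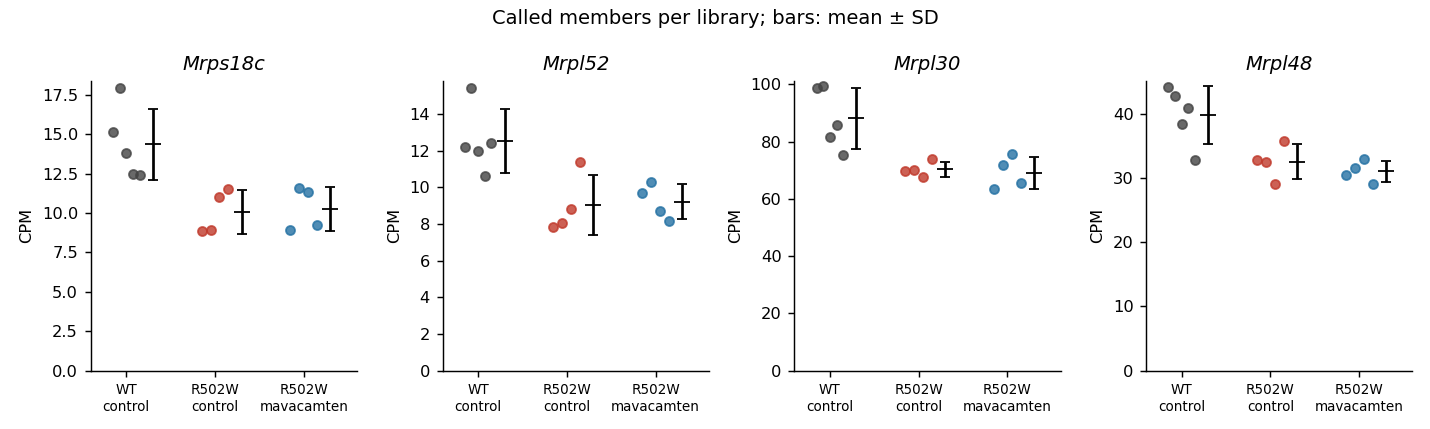
TMM-scaled CPM (axes from 0) of the 4 genes that passed the test in either mutant group, by library; the bars are mean ± SD of the 5 or 4 libraries of a group. Both mutant groups lie wholly below WT control for Mrps18c, and for the other 3 genes at least 1 mutant library reaches into the WT range.

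These 3 calls were close to the threshold. Without R502W control 1, 2 or 3, in turn, none of the 78 was called, and over all 13 single-library omissions 0 to 5 were. Without WT control 2, 3 were lower (Mrps18c, Mrpl30 and Mrpl42), against 4.67% lower of the genes then tested. Mrps18c lost its call in 3 omissions, Mrpl30 in 4 and Mrpl52 in 7. DESeq2 called 9 lower (11.5%) and none higher, among them all 3, and called 1069 (7.13%) of the 15000 tested genes lower and 1434 (9.56%) higher.

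The promoters of the 3 genes that were lower in R502W control are shown because several regulators of nuclear genes for mitochondria are known by the short motifs they bind. Each runs from 170 bases before to 10 bases after the start site (RefSeq, GRCm38.p6, plus strand), with matches to the NRF1 motif (GCGCA and GCGC with any base between them), the ETS motif CCGGAAG bound by GABP, or the YY1 motif AAGATGGCG in capitals, on either strand. For Mrps18c the RefSeq start lies downstream of the gene start given above (100798627). Most of its stretch thus lies within the gene as placed there. That of Mrpl30 (chr1:37890307-37890486) held 1 NRF1 match, that of Mrps18c (chr5:100798589-100798768) 1 ETS match, and that of Mrpl52 (chr14:54426739-54426918) 2 ETS matches:
Mrpl30: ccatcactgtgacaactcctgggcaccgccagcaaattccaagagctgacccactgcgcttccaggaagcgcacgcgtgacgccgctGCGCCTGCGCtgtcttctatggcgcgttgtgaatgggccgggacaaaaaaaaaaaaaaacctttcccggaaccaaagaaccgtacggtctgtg
Mrps18c: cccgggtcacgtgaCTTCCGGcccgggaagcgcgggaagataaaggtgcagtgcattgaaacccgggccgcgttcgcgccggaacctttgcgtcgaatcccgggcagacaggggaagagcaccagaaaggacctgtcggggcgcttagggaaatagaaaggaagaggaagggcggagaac
Mrpl52: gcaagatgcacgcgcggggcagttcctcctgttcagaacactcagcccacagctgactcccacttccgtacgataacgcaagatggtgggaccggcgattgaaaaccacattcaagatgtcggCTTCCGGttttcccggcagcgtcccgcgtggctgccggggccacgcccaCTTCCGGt
In the table's windows of 300 bases, which hold 75 promoters of 69 of the 78 genes, 26 promoters (34.7%) held the ETS motif, 13 (17.3%) the NRF1 motif and 8 (10.7%) the YY1 motif. Over all 32851 promoters these shares were 8.86%, 4.6% and 1.4%, and over those of tested genes 15.9%, 8.98% and 2.7%. At least 1 motif was present in 41 of the 75 (54.7%), against 13.6% of all promoters and 24.9% of those of tested genes. A match describes letters only, and binding was not measured. The motifs were thus in the promoters of genes that differed and of many that did not.

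Genes of similar length had a similar median. The 78 are short, with a median exonic length of 2394 bases (607 to 8631) against 4288.5 over the tested genes. In the genotype comparison the fold change of the tested genes depended on length: its median was -0.16 below 1 kb, -0.18 at 1 to 2 kb, -0.093 at 2 to 4 kb, 0.037 at 4 to 8 kb and 0.22 above 8 kb. The 6227 tested genes of similar length, 1479.5 to 4264 bases (the middle 50% of the 78), had a median of -0.098, and 63.9% of them were below 0. Of these, 325 (5.22%) were lower and 218 (3.5%) higher. The median of -0.089 in the ribosomal genes was thus no lower than that of genes of their length, although a larger share of them, 78.2%, was below 0. Without WT control 2 the all-gene medians were -0.14, -0.15, -0.086, -0.0031 and 0.13 over the 5 length classes, so that the class of 4 to 8 kb turned in sign and that above 8 kb became smaller. Genes of similar length then had a median of -0.091, with 64.4% below 0.

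Within length classes the 2 did not run in parallel. The medians of the ribosomal genes were -0.14 below 1 kb (9 genes), -0.048 at 1 to 2 kb (22), -0.071 at 2 to 4 kb (25), -0.12 at 4 to 8 kb (18) and -0.15 above 8 kb (4). Up to 4 kb they lay above the median of the tested genes of their class, and beyond 4 kb below it. Their medians without that library were -0.12, -0.070, -0.067, -0.11 and -0.15, on the same sides of the all-gene medians. Exonic length counts every annotated exon: Mrpl48 has 8152 exonic bases but a median coding transcript of 865. With transcript length in place of exonic length, a measure added after the data were seen, genes of similar length had a median of -0.12.

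**Figure D4:**
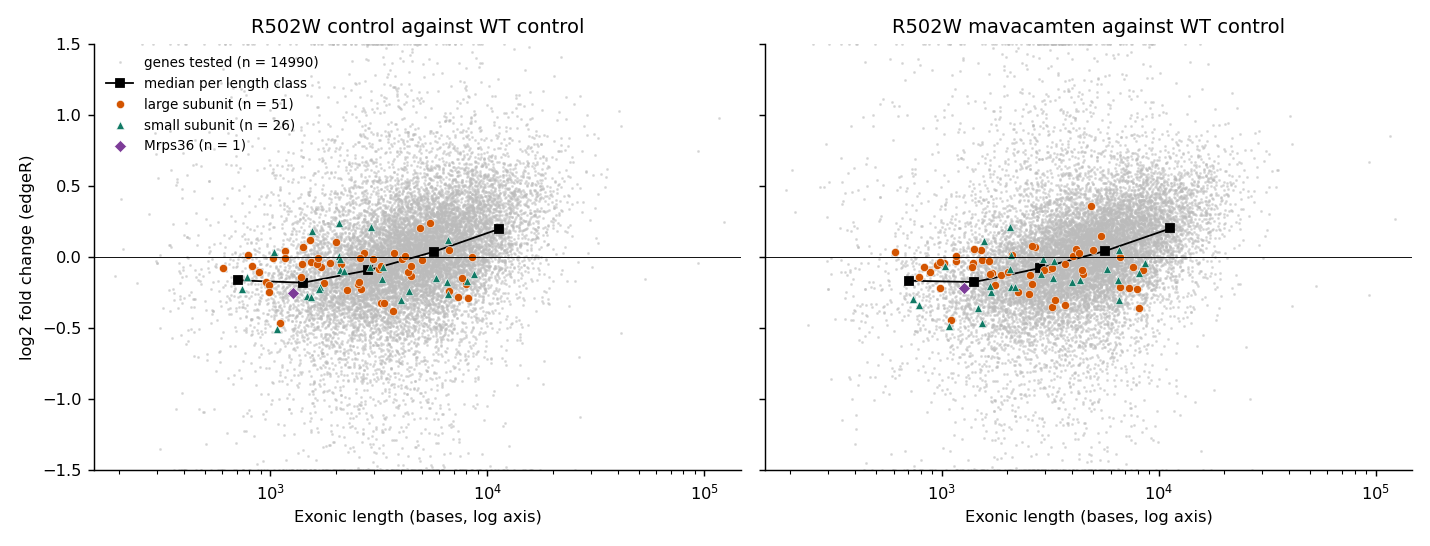
log2 fold change (edgeR) against exonic length in bases (log axis) for R502W control and for R502W mavacamten, each against WT control; grey points are 14990 tested genes with a length (values beyond the axis drawn at its edge), squares are medians per length class, coloured symbols are the 51 large-subunit genes, the 26 small-subunit genes and Mrps36. Genes under 2 kb lie mostly below 0 and genes over 8 kb above it, and the ribosomal genes lie between -0.51 (Mrps18c) and 0.36 (Mrpl23).

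Once the dependence on length was removed from each library, the median of the ribosomal genes was -0.021, against -0.029 over the tested genes. The share of them below 0 was then 55.1%, against 54.2% of the tested genes and 54.3% of those of similar length. By transcript length it was 57.7%, against 55.6% of the tested genes. The calls were others. Mrps34, Mrps23 and Mrpl43 were then higher, Mrpl48 and Mrps30 lower, and none of the 3 genes called before remained. That is 3.85% higher and 2.56% lower, against 5.19% and 3.53% of the tested genes in the same fit. With transcript length, Mrps34 was higher (1.28%, against 5.37% of the tested genes) and Mrps18c, Mrps25 and Mrps30 were lower (3.85%, against 3.29%). The genes with the smallest p-values on the higher side of the genotype comparison were Mrpl19, Mrps34 and Mrps2. Mrps34 had 34.0 ± 4.71 CPM (n = 5) in WT control and 40.1 ± 4.99 (n = 4) in R502W control, Mrpl19 19.5 ± 1.38 and 23.0 ± 2.76, and Mrps2 26.0 ± 2.41 and 30 ± 2.42. Without removal of the length trend their fold changes were 0.24, 0.24 and 0.21 with edgeR adjusted p of 0.173, 0.127 and 0.199. Mrps34 shares 63.4% of its exonic bases with Mapk8ip3 (115 CPM) on the opposite strand, and Mrpl19 36.0% with Gcfc2 (3.03 CPM), so both are uncertain.

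By class, the medians in the genotype comparison lay further apart by subunit than by bacterial counterpart. Genes with a bacterial counterpart had a median of -0.089, with 2 of 46 lower, and those without -0.087, with 1 of 30 lower. The large subunit had a median of -0.061 with 2 of 51 lower, and the small subunit -0.14 with 1 of 26 lower. Without WT control 2 the subunit medians were -0.074 and -0.14, and with the length trend removed -0.0074 and -0.063. In R502W mavacamten against WT control they were -0.078 and -0.16. The difference between the subunits was not tested.

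Among the genes named for their part in human cardiomyopathy, none passed the edgeR test over all 13 libraries in any comparison. Mrpl3 had 66.9 ± 5.67, 69.4 ± 2.09 and 67.0 ± 6.39 CPM in WT control, R502W control and R502W mavacamten. Mrpl44 had 37.3 ± 3.90, 36.0 ± 2.37 and 36.5 ± 4.04. Mrps22 measured 14.2, 13.3, 13.1, 12.4 and 11.5 CPM in WT control, 9.60, 10.7, 9.28 and 12.1 in R502W control and 11.8, 10.4, 12.5 and 11 in R502W mavacamten. Its values in R502W control overlapped WT control through 1 library, and its fold change of -0.30 ± 0.104 had an edgeR adjusted p of 0.0696. In the genotype comparison Mrps22 was called lower by DESeq2, as 1 of its 9 calls, and by edgeR without R502W control 4. Mrpl12, the gene with the highest length-scaled level, had 115 ± 18.4, 112 ± 9.35 and 113 ± 13.2 CPM.

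The treatment comparison set R502W mavacamten against R502W control. None of the 78 passed the test, and none of them had an unadjusted p under 0.05, where 1.7% of the tested genes were lower and 1.8% higher at that level. The background of adjusted calls was the same: 0.0% of the tested genes were higher or lower by edgeR, with 525 at an unadjusted p under 0.05. DESeq2 called 6 genes in all, none of them mitochondrial ribosomal. Of the 78 fold changes, 39 were below 0, against 49.2% of the tested genes, and the median was -0.00095 against 0.0036. They spread from -0.22 to 0.17, which was narrower than in either comparison with WT control.

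In the 3 genes with the smallest p-values on either side, all groups but those of Mrpl21 overlapped. On the lower side, Mrps2 had 30.5, 27.3, 33.1 and 29.3 CPM in R502W control and 24.1, 30.2, 27.3 and 21.7 in R502W mavacamten, a fold change of -0.22 ± 0.109. Mrpl21 had 22.6, 22.5, 24.4 and 25.3 against 18.2, 21.5, 22 and 20.2, a fold change of -0.21 ± 0.114. Mrpl21 was the only one of the 78 whose treated libraries all lay below the untreated mutant ones, against 1.58% of the tested genes, and none lay wholly above, against 1.29%. Mrpl53 had a fold change of -0.15 ± 0.0933. On the higher side, Mrpl27 had 0.16 ± 0.097, Mrpl1 0.14 ± 0.126 and Mrps22 0.13 ± 0.109. All 6 had an edgeR adjusted p of 1.0. Mrpl53 shares 88.0% of its exonic bases with an overlapping gene model on the same strand (Gm42688, 3.05 CPM).

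**Figure D5:**
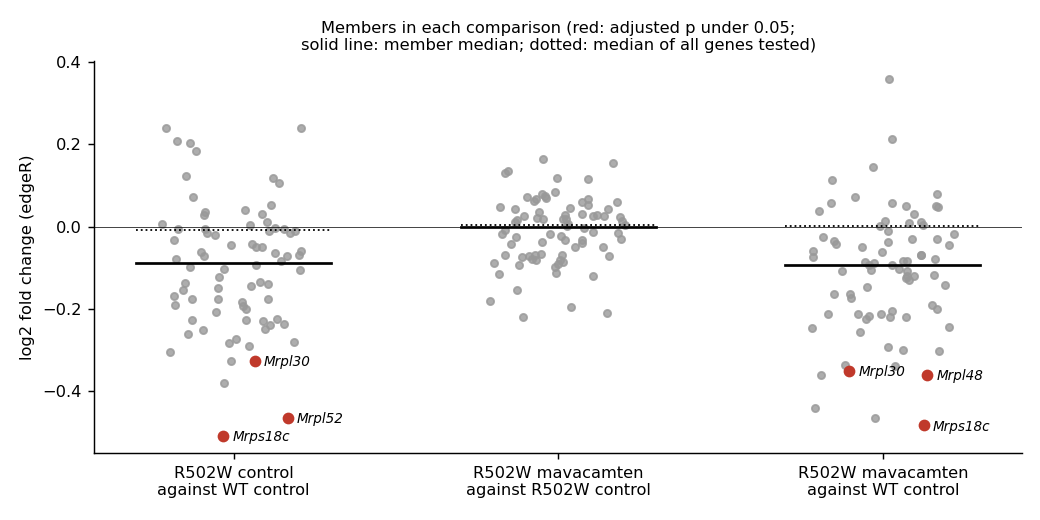
log2 fold change (edgeR) of each of the 78 genes in the 3 comparisons; red points have an adjusted p under 0.05, solid lines are the medians of the 78, and dotted lines are the medians of all 15000 tested genes. The medians are -0.089, -0.00095 and -0.093, and the treatment comparison has the narrowest spread and no red point.

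R502W mavacamten was also compared with WT control, to place the treated hearts beside wild type. This comparison uses the same WT control libraries as the genotype comparison, so the values of both stand side by side and are not independent. Of the 78, 3 were lower and none was higher: Mrpl48, Mrpl30 and Mrps18c. That is 3.85%, where 2.29% of the tested genes were lower and 5.93% higher. At an unadjusted p under 0.05, 16 were lower and none was higher, against 9.85% and 16.0%. In 3 genes, Mrps18c, Mrpl52 and Mrps25, the groups did not overlap and R502W mavacamten was lower, against 3.79% of the tested genes, and in none was it higher, against 8.54%. Mrps25 shares 69.8% of its exonic bases with Nr2c2 (23.0 CPM) on the opposite strand. The fold change was below 0 for 60 of the 78 (76.9%), against 49.7% of the tested genes and 63.0% of those of similar length. The medians were -0.093 for the 78, 0.0022 for the tested genes and -0.084 for those of similar length, of which 193 were lower and 126 higher. Without WT control 2, 63 of the 78 (80.8%) were below 0, against 52.0% of the genes then tested, and the medians were -0.088 for the 78, -0.013 for those genes and -0.074 for those of similar length. The same 3 genes were then without overlap, against 4.49% of the 15000 genes.

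Mrpl48 encodes a large-subunit protein without a bacterial counterpart. It measured 44.2, 42.8, 38.4, 40.8 and 32.7 CPM in WT control, 32.8, 32.5, 29.1 and 35.7 in R502W control, and 30.5, 31.5, 32.9 and 29.1 in R502W mavacamten. WT control 5 lay within the mutant range, and the other 4 WT libraries lay above both mutant groups. It fell by 0.36 ± 0.0926 in R502W mavacamten (edgeR adjusted p 0.0326). In R502W control its fold change was -0.29 ± 0.0924 with an adjusted p of 0.0541. The gene (ENSMUSG00000030706) lies at chr7:100545751-100608301 on the minus strand, and 708 of its exonic bases (8.68%) overlap Rab6a (74.3 CPM) on the opposite strand.

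The other 2 genes kept nearly the same distance from WT control as in untreated mutants. Mrps18c fell by 0.48 ± 0.138 (edgeR adjusted p 0.0463) and Mrpl30 by 0.35 ± 0.0918 (0.0349). For Mrpl52 the fold change was -0.44 ± 0.138, with an adjusted p of 0.0669. On the higher side, Mrps34 had a fold change of 0.21, Mrpl19 of 0.15 and Mrpl23 of 0.36, none of which passed (adjusted p 0.249, 0.381 and 0.481). Without R502W mavacamten 1, 2 or 4, in turn, none of the 78 was called, and without WT control 2 the calls were Mrpl30 and Mrpl48. Over the 13 omissions the call of Mrps18c was lost in 11, that of Mrpl30 in 7 and that of Mrpl48 in 6. With the length trend removed, Mrpl48 alone was called (1.28% lower, against 1.69% of the tested genes). The median of the 78 was then -0.030, against -0.015 over the tested genes, and 55.1% of the 78 were below 0, against 52.5%. That share was 35.9% in the 39 genes below their median exonic length and 74.4% in the 39 above it. By transcript length 64.1% of the 78 were below 0, against 53.6%. Mrpl48 then lost its call, and Mrps25 alone was called (1.28% lower, against 1.56% of the tested genes). DESeq2 called 9 lower (11.5%) and none higher, and 733 (4.89%) of the tested genes lower and 1084 (7.23%) higher.

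The rest of the machinery for mitochondrial translation was followed through lists of genes grouped by role. Each count is to be read against the tested genes as a whole, of which 3.75% were lower and 8.63% higher in R502W control, and 2.29% and 5.93% in R502W mavacamten, than in WT control. A list with 1 gene called is at or near those shares for its size. None of the lists below had a gene that passed the test between R502W mavacamten and R502W control. The 5 ribosomal subunits with other names (Dap3, Ptcd3, Chchd1, Aurkaip1 and Gadd45gip1) had none that passed in any comparison, with a median fold change of -0.088 in the genotype comparison. Of 27 genes for ribosome assembly, 1 passed, and it was lower: Mterf4, which acts with the methyltransferase Nsun4 in the assembly of the large subunit. It had 16.7 ± 2.16 CPM (n = 5) in WT control, 11.2 ± 0.762 (n = 4) in R502W control and 11.5 ± 1.35 (n = 4) in R502W mavacamten. It fell by 0.57 ± 0.115 in R502W control (edgeR adjusted p 0.00727), a call kept in all 13 single-library omissions, and by 0.53 ± 0.115 in R502W mavacamten (0.017). The latter call was lost without R502W mavacamten 2 (adjusted p 0.054).

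Of 12 translation factors, 1 was higher: Mtif2, the initiation factor that binds the initiator tRNA. It had 26.7 ± 3.13, 34.6 ± 2.17 and 35.5 ± 5.36 CPM in WT control, R502W control and R502W mavacamten. Its fold change was 0.38 ± 0.108 (edgeR adjusted p 0.0373) for R502W control and 0.41 ± 0.108 (0.0351) for R502W mavacamten against WT control. The genotype call was lost in 10 of the 13 single-library omissions (adjusted p up to 0.111) and the other in 7 (up to 0.134). With the length trend removed, 2 of the 12 were called in the genotype comparison and 1 in R502W mavacamten against WT control. In that fit 5.19% of the tested genes were higher and 3.53% lower in the genotype comparison, and 2.51% and 1.69% in the other. Among 20 genes of aminoacyl-tRNA synthesis, Mars2, which charges methionine tRNA, was higher in both mutant groups. It measured 12.6 ± 1.48 CPM in WT control, 17.8 ± 1.99 in R502W control and 17.6 ± 1.77 in R502W mavacamten, with fold changes of 0.50 ± 0.109 (edgeR adjusted p 0.0114) and 0.48 ± 0.109 (0.0211). With the length trend removed these were 0.24 and 0.23 (adjusted p 0.138 and 0.198), and with transcript length -0.0079 and -0.013. The call in R502W mavacamten was also lost without R502W mavacamten 2 or 3. Aars2, which charges alanine tRNA, was higher in R502W mavacamten than in WT control by 0.35 ± 0.0866 (edgeR adjusted p 0.0296), a call lost in 6 of the 13 omissions. With the length trend removed its fold change was 0.32 (adjusted p 0.0512), and with transcript length 0.24 (0.14), so that this call too was lost. By exonic length, 1 of the 20 genes, other than Mars2, was called in the genotype comparison once the trend was removed.

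Of 13 genes for mitochondrial transcription and RNA stability, 13 genes for the proteins that the mitochondrial genome encodes and 2 for mitochondrial ribosomal RNA, none passed in any comparison. In the genotype comparison the median fold change was 0.052 for the first list, -0.031 for the second and 0.094 for the third. Poly(A) selection captures mitochondrial RNAs unevenly, so their levels were not compared with those of nuclear genes. Of 10 regulators of nuclear genes for mitochondria, 1 passed: Ppargc1b, a coactivator of such genes. It measured 13, 4.68, 10.9, 11.5 and 15.4 CPM in WT control, 31.9, 23.3, 24.5 and 23.5 in R502W control and 25.3, 26.9, 28.6 and 24.8 in R502W mavacamten. Every mutant library lay above every WT library. The fold change was 1.22 ± 0.231 for R502W control (edgeR adjusted p 0.00534) and 1.25 ± 0.231 for R502W mavacamten (0.00923), kept in all 13 omissions in both comparisons.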

How the data were processed

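Poly(A)-selected, strand-specific libraries were made from hearts stored in RNAlater, per the labels' protocols. The authors deposited RSEM expected counts for each Ensembl gene on GRCm38, per the submitters' processing notes; cutadapt, FastQC and DESeq2 are also named there, without versions. The aligner is not given in the sources used here. Of the values, 5.8% were fractional, and all were rounded to whole numbers. Column names matched the labels, and no other column was present.

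Genes were kept by filterByExpr (minimum count 10, minimum total 15). edgeR 4.0.16 in R 4.3.3 was used after TMM scaling, with the quasi-likelihood fit of the 3 group means over all 13 libraries (biological coefficient of variation 0.232). Adjusted p-values are Benjamini-Hochberg values over the 15000 genes. Levels (CPM) carry SD, and log2 fold changes carry SE. Tested on simulated data, the genotype comparison called 34.3% of genes changed 1.5-fold and 70.1% of those changed 2-fold, and the treatment comparison 17.9% and 70.1%. The 22 within-group pairs of libraries differed beyond sampling noise (chi-square per degree of freedom 7.31 to 103).

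Symbols, coordinates and lengths came from GENCODE M21 (GRCm38), which held 55230 of the 55471 IDs, and promoters from RefSeq. The genes and lists were chosen with earlier results of these data known. Named were the genes called in a comparison (with fewer than 6, also the 3 smallest p-values each way), the 4 highest and 4 lowest by length-scaled level, the 3 most and 3 least variable, 7 fixed genes (Mrps18a, Mrps18b, Mrps18c, Mrpl12, Mrpl3, Mrpl44 and Mrps22) and up to 3 called genes of each list. Mrpl42, Mrpl43, Mrps25 and Mrps30 were named after their values were seen. Alternatives were RLE factors, no filter, DESeq2 1.42.0, a fit of 2 groups, a replicate block, removal of the length trend (lowess, span 0.3) and the omission of each library.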

Additional observations from a re-analysis of the deposited data

Results flagged for a closer look

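In 35 features (the named genes and the summed share and summed CPM of the 78 genes) and 3 groups, 105 groups of libraries were examined for 1 library far from the rest of its group by Dixon's criterion at the 95% level, and 5 stood out. Chance gives about 1 in 20. The summed share of the mitochondrial ribosomal genes was 0.347% of counts in WT control 2, against 0.279% to 0.289% in the other WT control libraries; that library also had the high lymphocyte and thymus markers and cytosolic ribosomal protein genes. The share was 0.276% in R502W mavacamten 1, against 0.257% to 0.26% in the other libraries of its group. Mrps2 measured 30.2 CPM in WT control 1, against 24.2 to 25.7. Mars2 measured 20.7 CPM in R502W control 4, against 16.3 to 17.0, and Ppargc1b 31.9 CPM in R502W control 1, against 23.3 to 24.5. In both of these genes the library that stood out lay on the side away from WT control.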

How the results depend on the processing

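Removing 1 library at a time gave 0 to 5 called mitochondrial ribosomal genes in the genotype comparison (median fold change -0.13 to -0.061), none in the treatment comparison (-0.036 to 0.028), and 0 to 3 in R502W mavacamten against WT control (-0.15 to -0.069). The number called in the genotype comparison, 3 in the report, was 5 with RLE factors, 0 with a replicate block, 5 with the length trend removed (none of them among the 3), 1 with both a replicate block and the length trend removed, and 9 with DESeq2. For R502W mavacamten against WT control it was 0 with only the 2 groups in the fit, 1 with a replicate block, 1 with the length trend removed by either measure of length, 1 with block and length together, and 9 with DESeq2. With the length trend removed, the gene called was Mrpl48 by exonic length and Mrps25 by transcript length. The treatment comparison gave 0 throughout. The labels do not say that replicate numbers pair libraries, and no pairing was seen. Deviations of same-numbered libraries correlated between -0.32 and 0.25, and no library correlated best with its own number. Such correlations cannot show that there was no pairing. The log2 ratio of the summed share was -0.11 for R502W control against WT control and 0.079 on the length-scaled level, and -0.17 and -0.032 for R502W mavacamten against WT control. Without WT control 2, an omission chosen for these sums after the data were seen, these were -0.044 and 0.12, and -0.11 and 0.012, so that the last turned in sign. Over all omissions they ran from -0.13 to -0.044 and from 0.050 to 0.13 for the genotype comparison, from -0.19 to -0.11 and from -0.084 to 0.012 for R502W mavacamten against WT control, and from -0.099 to -0.042 and from -0.16 to -0.077 for the treatment comparison. Removing the length trend by transcript length, chosen after the data were seen, turned the sign for Mars2 in both comparisons with WT control (-0.0079 and -0.013) and for Mrpl19 in R502W mavacamten against WT control (-0.077). The cause of these changes was not tested. Over all tested genes, 1856 were called in the genotype comparison, 963 with a replicate block, 631 with block and length together and 2503 with DESeq2; in R502W mavacamten against WT control 1232 were called, 216 with 2 groups, 349 with a replicate block, 740 without a filter, 631 with the length trend removed, 679 by transcript length and 165 with block and length. Of those 1232, 72.2% were higher, against 61.8% with RLE factors and 59.7% with either DESeq2 or the length trend removed; in the genotype comparison 69.7% were higher, against 57.3% with DESeq2 and 59.5% with the length trend removed. Scaling moved the median of all genes by less than 0.1 (log2), to at most -0.034. The median of the 78 genes stayed below 0 in both comparisons with WT control under all alternatives run. Counts per gene ran from 591 (Mrpl23) to 36038 over the 13 libraries. The parts of counting error and of the spread between libraries in these comparisons were not separated.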

Other observations

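Many of the mitochondrial ribosomal genes start beside a gene that is transcribed the other way. A protein-coding start within 1000 bases on the opposite strand, facing away, was annotated for 18 of the 78 (23.1%), against 1298 of 13659 tested protein-coding genes (9.5%). Some of these neighbours also serve mitochondria or ribosomes: Mrps12 starts 172 bases from Sars2, the mitochondrial seryl-tRNA synthetase, Mrps27 81 bases from Ptcd2, and Mrpl49 59 bases from Fau, which encodes a protein of the cytosolic ribosome fused to a ubiquitin-like one. Of the 18 neighbours, 16 were measured well enough to test, and none passed the edgeR test in any comparison. Mrps18c, which was lower in both mutant groups, starts 29 bases from Helq, a DNA helicase gene, whose fold change in R502W control was 0.48 with an edgeR adjusted p of 0.0863. Mrpl30 starts 66 bases from Mitd1, whose fold change was -0.12 (0.834). Mrpl49 itself was not called, and Fau had a fold change of -0.40 with an adjusted p of 0.0547.

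By chromosome, 11 of the 78 genes lie on chromosome 11, 8 on chromosome 17 and 7 on chromosome 6. The fold changes of the neighbouring pairs were not compared further.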
